A study of Mus musculus with 12 samples.

Results

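The AP-1 genes encode dimeric transcription factors of the basic leucine zipper (bZIP) class. The 10 rows of the count files whose symbol is Fos, Fosb, Fosl1, Fosl2, Jun, Junb, Jund, Atf3, Batf or Batf3 were taken as the members, out of 24421 gene rows in all. Each of the 10 symbols matched 1 row in all 12 libraries, and all 10 passed the filter on low counts, Batf and Batf3 through their tumour libraries alone. RNA was sequenced in bulk from 4 groups of 3 mouse brain libraries. The naive group was cortex of mice without injection, labelled naive. The other groups were whole tumours raised by injecting an RCAS virus, an avian retroviral vector, into the brain, whose insert was YAP1-MAMLD1-dR3R1 in one group, YAP1-FAM118B in another and YAP1-TFE3 in the last, and the tumours were snap frozen. YAP1 is a transcriptional co-activator restrained by the Hippo pathway, and the study, by its title, looked for functions common to such fusions. The labels give no mouse strain, age, time after injection or host cell type for the virus, and they do not explain the suffix of YAP1-MAMLD1-dR3R1.

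JUN proteins can pair with each other or with FOS proteins, whereas FOS proteins need a JUN partner, and the pairs bind the AP-1 site in promoters and enhancers. Fos, Fosb, Jun and Junb are immediate early genes, transcribed within minutes when growth factors or neuronal activity switch on kinases of the MAPK family, and Jund is present more steadily. In the cortex their best known stimulus is neuronal activity. In tumours AP-1 sites often lie beside TEAD sites in enhancers, where YAP1 is recruited by TEAD proteins. ATF3 is a stress-induced bZIP factor, and BATF and BATF3 pair with JUN proteins in lymphocytes and dendritic cells.

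Several AP-1 genes are known to be regulated through AP-1 and cAMP response elements in their own promoters. The RefSeq promoters of the members (GRCm38.p6, 250 bases before to 50 after the start) were therefore searched for 6 motifs on both strands. Of the 10 members 9 matched an entry, and Fosl1 was the member that did not. Capitals mark the matches in the following promoters, which are printed for the 4 members that held any, up to the base before the start. The Jun stretch is chr4:95052223-95052472 on the minus strand, and its capitals mark TGACATCA, the Jun-type AP-1 site, at bases -45 to -38. The Fos stretch is chr12:85473640-85473889 on the plus strand, with the cAMP response element core TGACGT at bases -66 to -61. The Atf3 stretch is chr1:191183334-191183583 on the minus strand, where the same core reads ACGTCA at bases -8 to -3. The Batf stretch is chr12:85686470-85686719 on the plus strand, with the core at bases -98 to -93.
Jun: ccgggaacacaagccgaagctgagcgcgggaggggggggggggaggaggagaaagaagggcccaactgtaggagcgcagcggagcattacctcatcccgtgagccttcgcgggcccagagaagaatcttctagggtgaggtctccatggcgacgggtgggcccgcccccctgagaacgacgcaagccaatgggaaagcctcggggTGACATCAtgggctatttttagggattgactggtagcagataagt
Fos: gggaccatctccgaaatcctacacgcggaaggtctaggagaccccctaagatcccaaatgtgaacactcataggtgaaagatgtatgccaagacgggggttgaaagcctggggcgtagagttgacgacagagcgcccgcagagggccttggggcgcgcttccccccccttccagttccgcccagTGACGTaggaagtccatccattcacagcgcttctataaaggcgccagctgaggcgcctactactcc
Atf3: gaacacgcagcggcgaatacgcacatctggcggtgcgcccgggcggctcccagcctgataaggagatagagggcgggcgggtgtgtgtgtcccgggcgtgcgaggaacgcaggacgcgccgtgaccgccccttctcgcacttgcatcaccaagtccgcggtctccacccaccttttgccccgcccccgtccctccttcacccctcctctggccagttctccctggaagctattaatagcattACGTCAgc
Batf: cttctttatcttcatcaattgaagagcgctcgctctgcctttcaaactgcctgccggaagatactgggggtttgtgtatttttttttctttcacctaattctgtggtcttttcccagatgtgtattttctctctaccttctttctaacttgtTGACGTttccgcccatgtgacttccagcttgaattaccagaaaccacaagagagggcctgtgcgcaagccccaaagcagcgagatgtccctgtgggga

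The core TGACGT was therefore present in 3 of 9 member promoters (Fos, Atf3 and Batf), beside 7.51% of 32851 RefSeq promoters of the same length. TGACATCA was present in the promoter of Jun alone, beside 3.62% of all promoters. The AP-1 site TGANTCA (7.81% of all promoters), the full element TGACGTCA (1.79%, which contains the core), the TEAD site CATTCC (14.7%) and the CArG box of serum response factor (1.63%) were in none of the 9. Overlapping matches were counted. These letters are a description of the windows and no test of binding.

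The libraries held between 19850220 and 24760814 counts. Levels are given as CPM, the count of a gene relative to the library's total after scaling with trimmed mean of M values (TMM) factors, and 3 counts in a library corresponded to between 0.121 and 0.151 CPM before that scaling. Nothing in the labels states whether replicates were different animals. The p-values therefore reflect only how much these samples vary, and part of that may be technical. Naive replicate 2 and YAP1-FAM118B replicate 2 each held both Xist (25.6 and 162 CPM) and the Y-linked Ddx3y (49.3 and 29.9 CPM), and results that changed without them are named below. For naive samples one label gives brain tumour as the tissue and another gives normal cortex. Markers of neurons summed to between 7103 and 10080 CPM in naive libraries. They summed to between 532 and 1396 CPM in YAP1-MAMLD1-dR3R1 libraries. In YAP1-FAM118B libraries the range was 3851 to 5847 CPM, and in YAP1-TFE3 libraries it was 101.5 to 1028 CPM. In whole tissue, fewer cells of a type and less RNA per cell cannot be told apart.

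A gene was called when its adjusted p in edgeR's quasi-likelihood test was under 0.05, with Benjamini-Hochberg adjustment over the 16364 genes tested. Against naive, 4 members were higher and 1 was lower in YAP1-MAMLD1-dR3R1 tumours, where 34.4% of all genes were called higher and 28.8% lower (63.2% in either direction). In YAP1-FAM118B tumours 3 members were higher and 0 lower, beside 21.3% and 8.45% of all genes (29.7% in either direction). At an unadjusted p under 0.05 edgeR put 0 members lower there, and DESeq2 called 0 lower and 4 higher. In YAP1-TFE3 tumours 4 members were higher and 2 lower, beside 40.6% and 30.0% of all genes (70.6% in either direction). DESeq2 divided its 6 calls there into 3 higher and 3 lower, since Fosl2 was not called and Jund was. The 3 comparisons share the naive libraries. Batf is among the higher members in all 3 comparisons and Batf3 in the first and the last, and both passed the filter through the tumours alone.

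Libraries of the 2 groups did not overlap, with the tumours higher, for 4, 3 and 4 members (the order of the paragraph above, kept below wherever 3 values are given for the tumours), beside 38.0%, 29.7% and 42.5% of all genes. They did not overlap with the tumours lower for 1, 1 and 2 members, beside 34.9%, 27.1% and 33.2% of all genes. The median log2 fold change of the members was 0.49, 0.38 and -0.41, and the median of all genes tested was 0.06, -0.05 and 0.23.

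**Figure D1:**
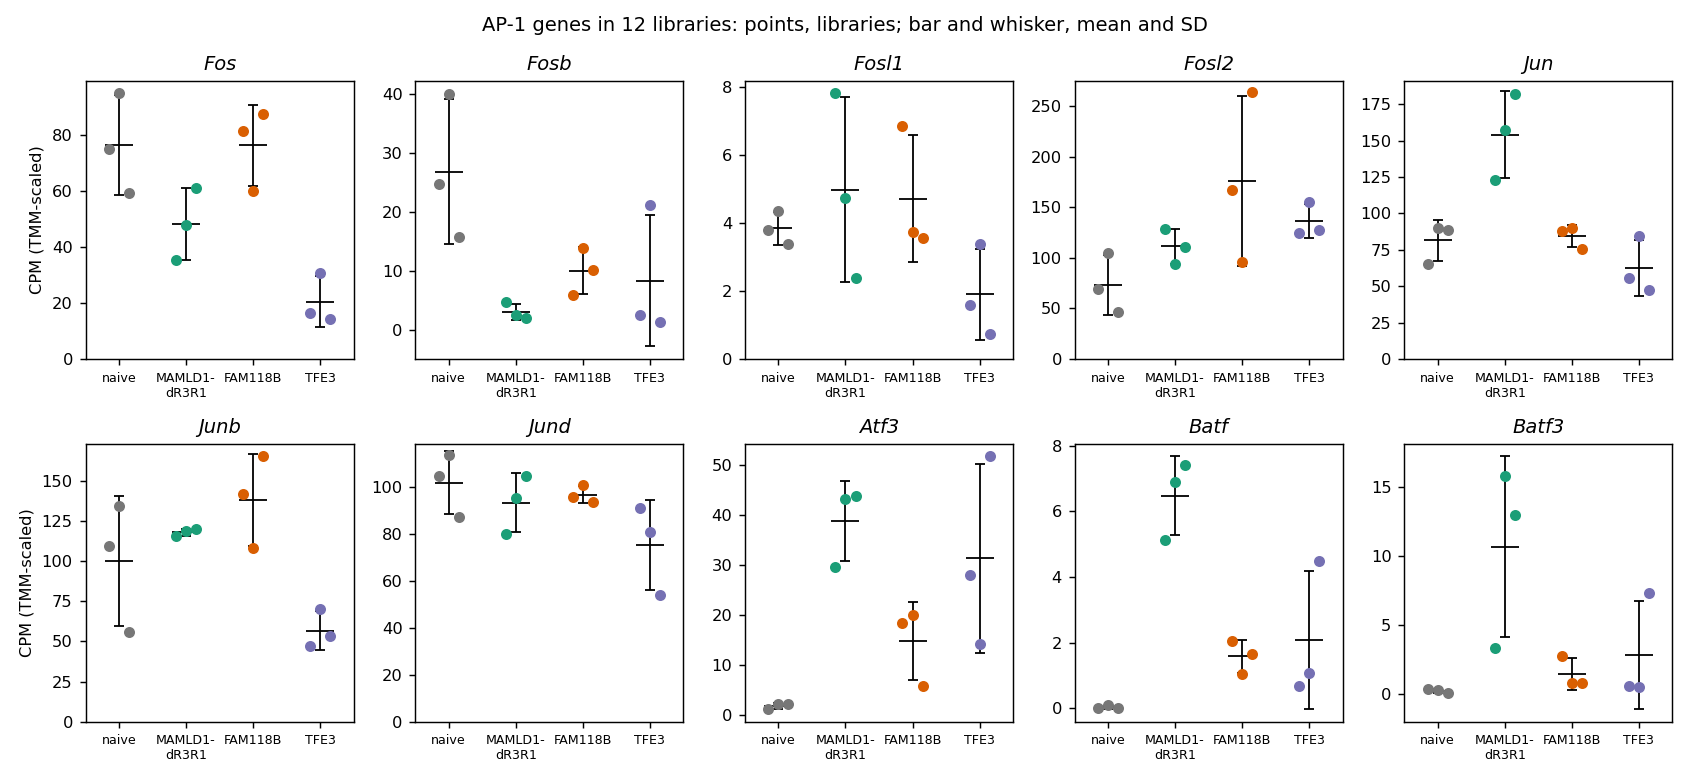
CPM (vertical axis, TMM-scaled, each panel on its own scale) of the 10 AP-1 genes in the 12 libraries by group (horizontal axis); points are libraries, bars the group mean and whiskers its SD (n = 3). Fos is lowest in the 3 YAP1-TFE3 libraries (14.2 to 30.7 CPM), Jun is highest in the 3 YAP1-MAMLD1-dR3R1 libraries (123 to 182 CPM), and Atf3, Batf and Batf3 are higher in every tumour library than in every naive library.

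Among the JUN genes, Jun was higher in YAP1-MAMLD1-dR3R1 tumours than in every other group. Jun (chromosome 4, 95049036 to 95052222, GRCm38, a single exon) encodes the founding subunit, which dimerises with itself and with FOS and ATF proteins. Its levels were 65.3, 89.9 and 88.9 CPM in naive replicates 1 to 3 and 123, 157 and 182 in YAP1-MAMLD1-dR3R1. In YAP1-FAM118B they were 87.6, 89.7 and 75.7 CPM, and in YAP1-TFE3 55.9, 84.1 and 47.4. The lowest YAP1-MAMLD1-dR3R1 library lay above all 9 others, and the remaining groups overlapped each other.

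On the log2 scale Jun rose by 0.92 ± 0.23 (SE) in YAP1-MAMLD1-dR3R1 against naive (edgeR adjusted p = 0.00592). Against naive, YAP1-FAM118B at 0.05 ± 0.23 and YAP1-TFE3 at -0.38 ± 0.23 were not called (edgeR adjusted p of 0.874 and 0.159). Without YAP1-TFE3 replicate 2 the latter was -0.89 ± 0.20 and was called (edgeR adjusted p = 0.00345), as it was without naive replicate 1 (0.0459). Between YAP1-TFE3 and YAP1-FAM118B the difference of -0.43 ± 0.23 did not pass (edgeR adjusted p = 0.139) and was called in 3 of 20 alternatives. The log2 difference of YAP1-TFE3 from YAP1-MAMLD1-dR3R1 was -1.30 ± 0.23 (edgeR adjusted p = 0.00183). For YAP1-FAM118B the log2 difference from YAP1-MAMLD1-dR3R1 was -0.87 ± 0.23 (edgeR adjusted p = 0.0244). That call was lost when naive replicate 1, YAP1-MAMLD1-dR3R1 replicate 2 or 3, YAP1-TFE3 replicate 1 or any YAP1-FAM118B library was left out, and without both libraries that held Xist and Ddx3y, with edgeR adjusted p between 0.0509 and 0.136. The opposite-strand gene Junos shares 232 exon bases with Jun and was not analysed here.

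Junb was lower in YAP1-TFE3 tumours than in both other tumour groups. Junb (chromosome 8, 84976909 to 84978748) encodes a subunit that activates transcription less strongly than JUN in many settings. Its levels were 109.6, 134.5 and 55.8 CPM in naive and 115, 119 and 119.8 in YAP1-MAMLD1-dR3R1. In YAP1-FAM118B they were 141.5, 108 and 165 CPM, and in YAP1-TFE3 46.9, 70.1 and 53.1. No YAP1-TFE3 library reached the lowest library of another tumour group, while naive replicate 3 fell inside the YAP1-TFE3 range.

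The log2 difference of Junb in YAP1-TFE3 was -1.06 ± 0.29 (SE) from YAP1-MAMLD1-dR3R1 (edgeR adjusted p = 0.0167) and -1.29 ± 0.29 from YAP1-FAM118B (edgeR adjusted p = 0.00493). Against naive it was -0.82 ± 0.29 (edgeR adjusted p = 0.0279). This last call was lost on leaving out naive replicate 2 (edgeR adjusted p = 0.127), YAP1-TFE3 replicate 1 (0.0578) or YAP1-TFE3 replicate 3 (0.0509), and without both libraries that held Xist and Ddx3y (0.117). YAP1-MAMLD1-dR3R1 and YAP1-FAM118B did not pass against naive (0.24 ± 0.29 and 0.47 ± 0.29, edgeR adjusted p of 0.49 and 0.245) or against each other. Junb shares 173 exon bases with Prdx2 on the opposite strand, a peroxiredoxin gene that passed in no comparison.

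Jund passed in no comparison. Jund (chromosome 8, 70697739 to 70700616) encodes a subunit that restrains proliferation in fibroblasts. Its levels were 105, 114 and 87.2 CPM in naive and 79.8, 95.4 and 105 in YAP1-MAMLD1-dR3R1. YAP1-FAM118B libraries had 95.6, 100.8 and 93.7 CPM, and YAP1-TFE3 libraries 91.1, 80.75 and 53.9. Only the YAP1-TFE3 and YAP1-FAM118B libraries did not overlap. The largest change against naive, -0.44 ± 0.19 on the log2 scale in YAP1-TFE3, did not pass (edgeR adjusted p = 0.0612) and was called in 12 of 20 alternative settings. YAP1-TFE3 against YAP1-FAM118B (-0.36 ± 0.19, edgeR adjusted p = 0.136) was called in 9 of 20. The opposite-strand gene Gm11175 shares 877 exon bases with Jund (52.6% of its longest coding transcript) and was not analysed here.

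Among the FOS genes, Fos was low in YAP1-TFE3 tumours. Fos (chromosome 12, 85473890 to 85477274) encodes the partner of JUN whose RNA appears within minutes of a stimulus and decays quickly. Its levels were 75.0, 94.96 and 59.2 CPM in naive, and 16.5, 30.7 and 14.2 in YAP1-TFE3. In YAP1-MAMLD1-dR3R1 they were 35.3, 48.0 and 61.0 CPM, and in YAP1-FAM118B 81.3, 60.0 and 87.4. Every YAP1-TFE3 library lay below all 9 others, and the naive libraries overlapped those of both remaining fusions.

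Fos fell by 1.90 ± 0.33 (SE) on the log2 scale in YAP1-TFE3 against naive, to a fold of 0.268 (edgeR adjusted p = 5.23e-04). The log2 difference from YAP1-FAM118B was -1.90 ± 0.33 (edgeR adjusted p = 0.00112) and from YAP1-MAMLD1-dR3R1 -1.23 ± 0.32 (edgeR adjusted p = 0.0128). The first 2 of these 3 calls held in all 20 alternatives, and the third in 19, with edgeR adjusted p = 0.0561 when only the 2 groups compared were fitted. Against naive, YAP1-MAMLD1-dR3R1 at -0.67 ± 0.32 and YAP1-FAM118B at -0.003 ± 0.315 were not called (edgeR adjusted p of 0.0884 and 0.996). The former was called without YAP1-TFE3 replicate 2 (edgeR adjusted p = 0.0299), and so was the difference between these fusions (edgeR adjusted p = 0.0416, and 0.137 with all libraries).

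Fosb was lower in YAP1-MAMLD1-dR3R1 tumours than in naive cortex. Fosb (chromosome 7, 19302696 to 19310118) encodes the FOS protein whose shortened form accumulates in neurons after repeated stimulation. Its levels were 24.8, 40.05 and 15.7 CPM in naive and 4.62, 2.465 and 1.996 in YAP1-MAMLD1-dR3R1. The YAP1-FAM118B libraries had 5.955, 13.9 and 10.2 CPM, and in YAP1-TFE3 2.46, 21.2 and 1.30. All YAP1-MAMLD1-dR3R1 and all YAP1-FAM118B libraries were below all naive ones, whereas YAP1-TFE3 replicate 2 lay within the naive range and the other YAP1-TFE3 libraries far below it.

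The log2 fold change of Fosb against naive was -3.14 ± 0.94 (SE) in YAP1-MAMLD1-dR3R1 (edgeR adjusted p = 0.0143). The call was lost without YAP1-MAMLD1-dR3R1 replicate 2 (edgeR adjusted p = 0.0552) or 3 (0.0568) and without both libraries that held Xist and Ddx3y (0.0553). In YAP1-FAM118B the change of -1.42 ± 0.87 did not pass (edgeR adjusted p = 0.242), and with only the groups compared it was -1.40 ± 0.41 and was called (edgeR adjusted p = 0.0336). In YAP1-TFE3 it was -1.69 ± 0.88 (edgeR adjusted p = 0.11), and without YAP1-TFE3 replicate 2 it was -4.06 ± 0.63 (edgeR adjusted p = 4.06e-04). With the replicate number as a block it was -2.19 ± 0.79 (edgeR adjusted p = 0.0357). The same YAP1-TFE3 library had the highest sum of neuron markers of its group, 1028 CPM beside 101.5 and 126, and the part of these cells in its Fosb level was not tested. Between fusions Fosb was not called. Without YAP1-TFE3 replicate 2 it was called lower in YAP1-TFE3 than in YAP1-FAM118B (edgeR adjusted p = 0.00507). It was called higher in YAP1-FAM118B than in YAP1-MAMLD1-dR3R1 without that library (edgeR adjusted p = 0.024) and with only the groups compared (edgeR adjusted p = 0.0445).

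Fosl2 was the FOS gene with higher levels in tumours. Fosl2 (chromosome 5, 32136472 to 32157840) encodes FRA2, a slower FOS-related subunit known in bone and fibroblasts. Its levels were 69.3, 104.5 and 46.2 CPM in naive, and 167.5, 96.4 and 264 in YAP1-FAM118B. In YAP1-MAMLD1-dR3R1 they were 129, 94.3 and 111 CPM, and in YAP1-TFE3 125, 156 and 128. Naive replicate 2 lay above the lowest YAP1-FAM118B and YAP1-MAMLD1-dR3R1 libraries and below every YAP1-TFE3 library.

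Fosl2 rose by 1.26 ± 0.37 (SE) on the log2 scale in YAP1-FAM118B (edgeR adjusted p = 0.0266) and by 0.89 ± 0.36 in YAP1-TFE3 (edgeR adjusted p = 0.0476). The YAP1-FAM118B call was lost without naive replicate 1 or 3 (edgeR adjusted p of 0.0828 and 0.0864) or YAP1-FAM118B replicate 1 or 3 (0.0618 and 0.119), with only the groups compared (0.051) and with the replicate number as a block (0.0562). It was made with a change of 1.90 ± 0.29 without both libraries that held Xist and Ddx3y. The YAP1-TFE3 call stood in 4 of 20 alternatives, those without naive replicate 2, YAP1-FAM118B replicate 2, YAP1-FAM118B replicate 3 or both libraries that held Xist and Ddx3y. Its highest edgeR adjusted p was 0.269, without YAP1-TFE3 replicate 2. The change of 0.60 ± 0.36 in YAP1-MAMLD1-dR3R1 did not pass (edgeR adjusted p = 0.166), but without both libraries that held Xist and Ddx3y it was 0.95 ± 0.265 and was called (edgeR adjusted p = 0.0179). Fosl2 passed in no comparison between fusions. The summed fibroblast markers had the order of Fosl2 in YAP1-FAM118B libraries, at 17940, 4814 and 24140 CPM in replicates 1 to 3. They also did in YAP1-MAMLD1-dR3R1 (8036, 4428 and 6734 CPM). The order differed in YAP1-TFE3 (3987, 2898 and 1338 CPM) and in naive (154.5, 246 and 238 CPM). Of 8 fibroblast markers 6, 5 and 3 were called higher in the tumours, beside 34.4%, 21.3% and 40.6% of all genes. The part of fibroblasts in the Fosl2 result was not tested.

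Fosl1 was scarce in all groups. Fosl1 (chromosome 19, 5447698 to 5455938) encodes FRA1, a FOS-related subunit known from invasive carcinomas and from YAP-driven transcription. Its levels were 3.78, 4.36 and 3.39 CPM in naive and 7.81, 4.74 and 2.395 in YAP1-MAMLD1-dR3R1. YAP1-FAM118B libraries had 6.86, 3.74 and 3.55 CPM, and YAP1-TFE3 libraries 1.59, 3.37 and 0.743. All YAP1-TFE3 libraries were below all naive and all YAP1-FAM118B libraries, without a call (log2 differences of -1.01 ± 0.57 and -1.31 ± 0.57, edgeR adjusted p of 0.132 and 0.0776). Against YAP1-MAMLD1-dR3R1 the difference of -1.39 ± 0.57 did not pass either (edgeR adjusted p = 0.0769). Fosl1 was called lower in YAP1-TFE3 than in naive in 1 of 20 alternatives, without YAP1-TFE3 replicate 2 (edgeR adjusted p = 0.0162). Against YAP1-FAM118B and YAP1-MAMLD1-dR3R1 it was called in 4 of 20 each. These were without YAP1-TFE3 replicate 2 (edgeR adjusted p of 0.0117 and 0.0152), without YAP1-MAMLD1-dR3R1 replicate 3 (0.0434 and 0.0378), with the replicate number as a block (0.0397 and 0.0496) and with DESeq2 (DESeq2 adjusted p of 0.0455 and 0.0396).

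The counts of Fosl1 are uncertain. Of its longest coding transcript 1163 bases (62.4%) overlap exons of Ccdc85b on the opposite strand, and the strand setting of the counting is not given in the sources used here. Ccdc85b, which encodes a coiled-coil protein, was at 59.5, 65.5 and 49.8 CPM in naive and 14.4, 24.6 and 13.2 in YAP1-TFE3. It was at 32.4, 30.2 and 35.5 CPM in YAP1-MAMLD1-dR3R1 and 46.0, 46.1 and 43.0 in YAP1-FAM118B. Unless strand was used in the counting, reads of the 2 genes cannot be told apart where they overlap.

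**Figure D2:**
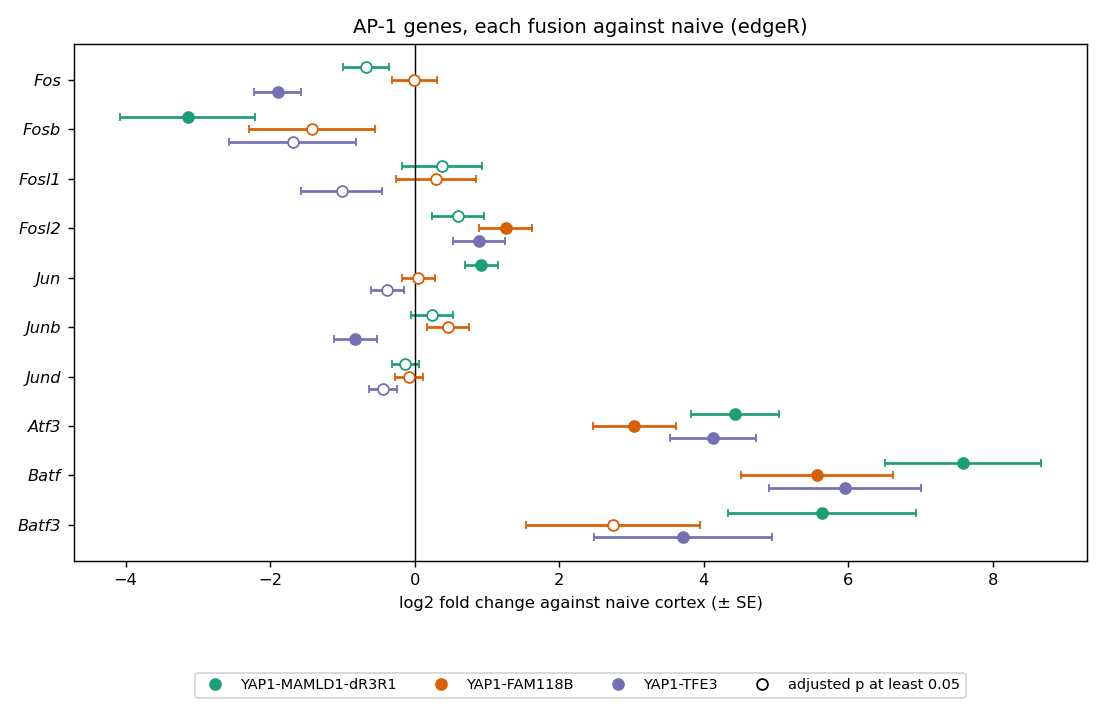
Log2 fold change against naive cortex (horizontal axis, point) with its SE (whisker) for the 10 AP-1 genes (vertical axis) in each fusion; filled points have an edgeR adjusted p under 0.05. Fos, Fosb and Junb have filled points below 0 and Fosl2, Jun, Atf3, Batf and Batf3 above it, and the positions of Batf rest on 2 counts in naive.

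Atf3 was far higher in each kind of tumour. Atf3 (chromosome 1, 191170296 to 191183333) encodes a bZIP factor induced by cell stress, which pairs with JUN proteins and represses transcription as a homodimer. Its levels were 1.11, 2.09 and 2.16 CPM in naive and 29.55, 43.2 and 43.8 in YAP1-MAMLD1-dR3R1. In YAP1-FAM118B they were 18.4, 19.98 and 5.77 CPM, and in YAP1-TFE3 28.02, 14.2 and 51.8. Every tumour library was above every naive library, and all YAP1-FAM118B libraries were below all YAP1-MAMLD1-dR3R1 ones.

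Atf3 rose 21.7-fold in YAP1-MAMLD1-dR3R1, 8.23-fold in YAP1-FAM118B and 17.5-fold in YAP1-TFE3. On the log2 scale these were 4.44 ± 0.61 (SE), 3.04 ± 0.58 and 4.13 ± 0.60 (edgeR adjusted p of 1.74e-04, 0.00333 and 1.82e-04). All 3 calls held in all 20 alternatives, with edgeR adjusted p no higher than 0.0259. Between YAP1-FAM118B and YAP1-MAMLD1-dR3R1 the log2 difference of -1.40 ± 0.53 did not pass (edgeR adjusted p = 0.0736), although DESeq2 called it (DESeq2 adjusted p = 0.0275). The YAP1-TFE3 tumours differed from them by 1.09 ± 0.53 and -0.31 ± 0.52 (edgeR adjusted p of 0.108 and 0.656).

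Batf was almost undetected in naive cortex and present in all tumour libraries. Batf (chromosome 12, 85686720 to 85709087, the same chromosome as Fos) encodes a bZIP factor that pairs with JUN and IRF proteins in lymphocytes. Its counts were 0, 2 and 0 in naive and 132, 143 and 167 in YAP1-MAMLD1-dR3R1. They were 50, 25 and 36 in YAP1-FAM118B and 14, 24 and 97 in YAP1-TFE3. In CPM the tumours had 5.13, 6.91 and 7.41, then 2.05, 1.05 and 1.66, then 0.675, 1.06 and 4.504, in the same order. The 3 YAP1-MAMLD1-dR3R1 libraries were above all others, and YAP1-TFE3 replicate 3 stood well above the other libraries of its group.

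With 2 counts in naive, the ratio of summed counts per TMM-scaled library size was 227 (95% counting interval 62.6 to 1883) in YAP1-MAMLD1-dR3R1, 56.4 (15.25 to 471) in YAP1-FAM118B and 73.9 (20.1 to 616) in YAP1-TFE3. The edgeR adjusted p were 2.19e-04, 0.00325 and 6.29e-04. Since Batf passed the filter on low counts through its tumour libraries alone, it had to differ in this direction, and these calls are given as a description. Batf in YAP1-FAM118B was below YAP1-MAMLD1-dR3R1 in all libraries, with a log2 difference of -2.03 ± 0.75 (SE) that did not pass (edgeR adjusted p = 0.0694) and was called with DESeq2 (DESeq2 adjusted p = 0.0126), with only the groups compared (edgeR adjusted p = 0.0198) and without YAP1-TFE3 replicate 3 (0.0303). YAP1-TFE3 was below YAP1-MAMLD1-dR3R1 in all libraries too, at -1.64 ± 0.74 (edgeR adjusted p = 0.104), which was called without YAP1-TFE3 replicate 3 (edgeR adjusted p = 0.00838) and with DESeq2 (DESeq2 adjusted p = 0.0264).

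Batf3 was higher in YAP1-MAMLD1-dR3R1 and YAP1-TFE3 tumours. Batf3 (chromosome 1, 191098414 to 191108943, near Atf3) is needed for the cross-presenting class of dendritic cells. Its levels were 0.328, 0.251 and 0.0440 CPM in naive, from 8, 6 and 1 counts, and 3.30, 15.8 and 12.95 in YAP1-MAMLD1-dR3R1. YAP1-FAM118B libraries had 2.75, 0.756 and 0.784 CPM, and YAP1-TFE3 libraries 0.579, 0.532 and 7.34. Every tumour library was above every naive library, with a wide spread within YAP1-MAMLD1-dR3R1 and YAP1-TFE3.

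Batf3 also passed the filter through tumour libraries alone, so the same limit holds for its calls against naive. The log2 fold change of Batf3 was 5.63 ± 1.30 (SE) in YAP1-MAMLD1-dR3R1 (edgeR adjusted p = 0.00383). It was 3.72 ± 1.23 in YAP1-TFE3 (edgeR adjusted p = 0.0199), and 1.24 ± 0.94 without YAP1-TFE3 replicate 3 (edgeR adjusted p = 0.266). The YAP1-TFE3 call was also lost on leaving out naive replicate 2 (edgeR adjusted p = 0.0522), naive replicate 3 (0.065) or both libraries that held Xist and Ddx3y (0.0638). It was lost with only the groups compared (edgeR adjusted p = 0.0564) and with the replicate number as a block (edgeR adjusted p = 0.0719) too. In YAP1-FAM118B the change of 2.74 ± 1.21 did not pass (edgeR adjusted p = 0.112), and no difference between fusions passed. Without YAP1-TFE3 replicate 3, Batf3 was called higher in YAP1-FAM118B than in naive (edgeR adjusted p = 0.0312) and lower in YAP1-TFE3 than in YAP1-MAMLD1-dR3R1 (edgeR adjusted p = 0.00794). It was then also called lower in YAP1-FAM118B than in YAP1-MAMLD1-dR3R1 (edgeR adjusted p = 0.025). Both YAP1-FAM118B comparisons were called with only the groups compared (edgeR adjusted p of 0.0342 against naive and 0.0494 against YAP1-MAMLD1-dR3R1) and with DESeq2 (DESeq2 adjusted p of 0.0376 and 0.0184).

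Markers of immune cells moved with these 3 genes. All 12 microglia and macrophage markers were higher than naive in YAP1-MAMLD1-dR3R1, 11 of 12 in YAP1-FAM118B and 10 of 12 in YAP1-TFE3. Their sum was 212 to 278 CPM in naive and 6078 to 8717 in YAP1-MAMLD1-dR3R1. It was 1844 to 2278 CPM in YAP1-FAM118B and 1409 to 4337 in YAP1-TFE3. Of 8 markers of conventional dendritic cells 5, 1 and 5 were higher in the tumours, and the sums were 16.6 to 17.7, 128 to 379, 48.6 to 65.1 and 47.9 to 286 CPM, naive first. Of 10 markers of T and NK cells 9, 2 and 7 were higher, with sums of 11.8 to 15.8, 34.8 to 222, 25.7 to 40.2 and 17.96 to 91.0 CPM. Of 4 B cell markers tested 3, 0 and 1 were higher. The listed B cell markers summed to 0.440 to 1.13, 14.3 to 116, 1.85 to 3.18 and 2.08 to 76.8 CPM. Of all genes 34.4%, 21.3% and 40.6% were called higher. In YAP1-FAM118B only the microglia and macrophage list, among these lists, had a larger share.

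The defining markers Cd3d, Nkg7, Gzmb, Pax5 and Xcr1, and Retnlg of the neutrophil list, were at 0 in all naive libraries. Those of them that were tested passed the filter on low counts through tumour libraries alone and could only be called higher. Other markers with few counts in naive share this limit, and the 6 markers of B cells together summed to at most 1.13 CPM there. The calls of all such markers in the counts above are given as a description. YAP1-TFE3 replicate 3 had the highest sums of its group in all 4 immune lists and the highest Atf3, Batf and Batf3. YAP1-MAMLD1-dR3R1 replicate 1 had the lowest sums of its group in these lists, and the lowest Atf3, Batf and Batf3. The order differed in YAP1-FAM118B, where replicate 3 had the highest sums for microglia and macrophages (2278 CPM) and B cells (3.18 CPM) and the lowest Atf3 (5.77 CPM). The part of immune cells in the levels of Atf3, Batf and Batf3 was not tested.

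**Figure D3:**
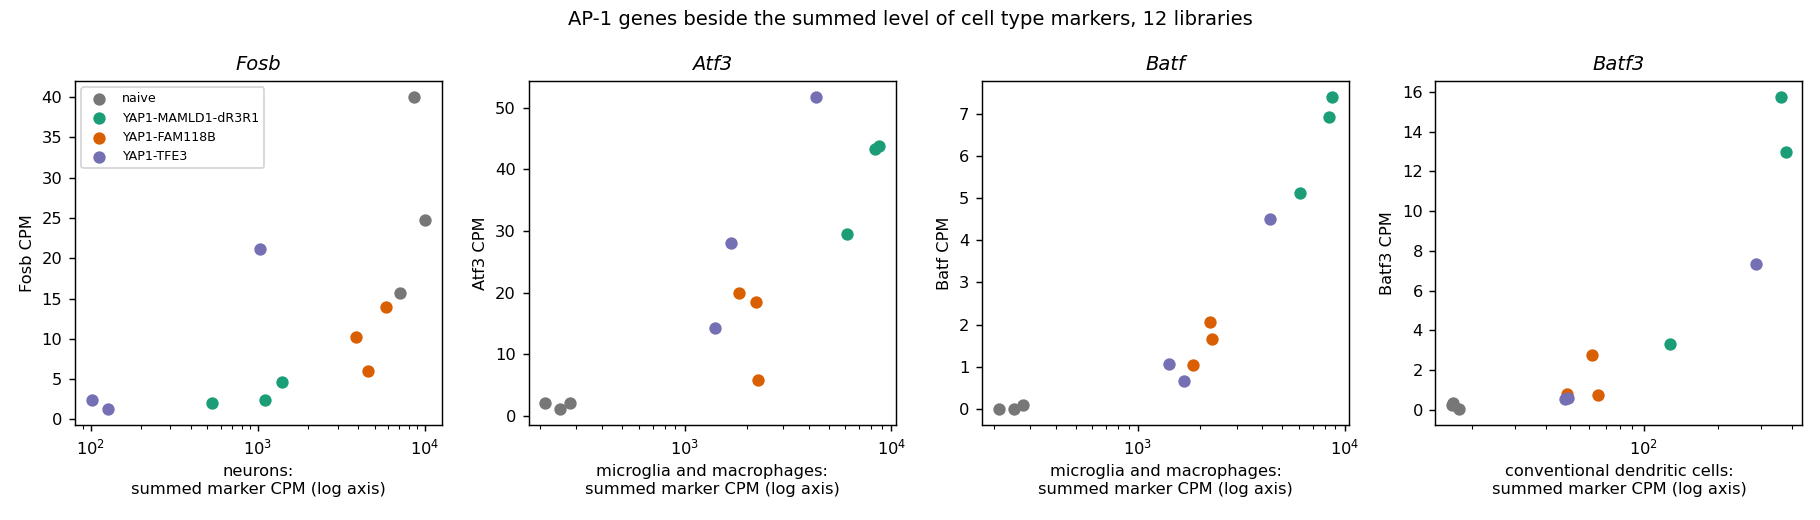
CPM of Fosb, Atf3, Batf and Batf3 (vertical axes, linear) against the summed CPM of neuron, microglia and macrophage or conventional dendritic cell markers (horizontal axes, log scale) in the 12 libraries, coloured by group. YAP1-TFE3 replicate 3 has the highest Batf of its group (4.504 CPM) at the highest microglia and macrophage sum (4337 CPM), and YAP1-TFE3 replicate 2 has the highest Fosb of its group (21.2 CPM) at the highest neuron sum (1028 CPM).

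Between the tumour groups, the calls of members were of lower levels in the fusion named first. In YAP1-FAM118B against YAP1-MAMLD1-dR3R1, 1 member (Jun) was lower and 0 were higher, beside 13.5% and 12.7% of all genes (26.2% in either direction). In YAP1-TFE3 against YAP1-MAMLD1-dR3R1, 3 members (Fos, Jun and Junb) were lower and 0 higher, beside 16.9% and 22.6% (39.5%). In YAP1-TFE3 against YAP1-FAM118B, 2 members (Fos and Junb) were lower and 0 higher, beside 23.7% and 28.0% (51.7%). In all 3, edgeR put 0 members higher at an unadjusted p under 0.05, and DESeq2 called 0 higher.

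Libraries did not overlap, with the first-named fusion lower, for 4 members in each of the 3 comparisons between fusions, beside 25.0%, 21.1% and 26.9% of all genes. With the first-named fusion higher there was 1 member (Fosb) in YAP1-FAM118B against YAP1-MAMLD1-dR3R1 (23.7% of all genes) and 0 in the others (27.0% and 31.4%). The median log2 difference of the members was -0.01, -1.14 and -0.37, beside -0.05, -0.05 and 0.08 over all genes tested. In YAP1-TFE3 against YAP1-MAMLD1-dR3R1 and against YAP1-FAM118B, scaling by library size alone moved the median of all genes by -0.19 and -0.21, and the share of calls that were higher from 57.2% to 42.0% and from 54.2% to 41.3%.

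Levels of different members can be compared only per transcript length, so CPM was divided by the length of the longest coding transcript of GENCODE M21 in kilobases. In naive cortex Jund led with 61.1 ± 8.07 CPM per kilobase (SD, n = 3), followed by Junb with 55.25 ± 22.2, Fos with 36.2 ± 8.51 and Jun with 25.5 ± 4.36. Each of these overlapped the next within the SD. In YAP1-MAMLD1-dR3R1 the order was Junb (65.2 ± 1.26), Jund (55.9 ± 7.51), Jun (48.3 ± 9.35), Fos (22.8 ± 6.11) and Atf3 (19.6 ± 4.06), of which Jund and Jun, and Fos and Atf3, lay within each other's SD. In YAP1-FAM118B it was Junb (76.4 ± 15.8), Jund (58.0 ± 2.22), Fos (36.2 ± 6.82), Fosl2 (26.9 ± 12.9) and Jun (26.45 ± 2.37). In YAP1-TFE3 it was Jund (45.1 ± 11.5), Junb (31.35 ± 6.62), Fosl2 (20.8 ± 2.59), Jun (19.6 ± 6.03) and Atf3 (15.8 ± 9.57), with Fos at 9.72 ± 4.24. The SD ranges of neighbours in the last 2 orders overlapped, except those of Jund with Junb and with Fos in YAP1-FAM118B and those of Junb and Fosl2 in YAP1-TFE3. The orders depend on the length chosen. With the union of exons as the length, Jund (55.9) stood above Junb (51.3) in YAP1-MAMLD1-dR3R1. Jun (26.45) then stood above Fosl2 (18.2) in YAP1-FAM118B, and Jun (19.6) and Atf3 (14.55) above Fosl2 (14.1) in YAP1-TFE3.

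Summed per length, the 10 members reached 199.6 ± 46.4 CPM per kilobase in naive, 252 ± 32.6 in YAP1-MAMLD1-dR3R1, and 240.0 ± 27.7 and 151 ± 14.7 in tumours of YAP1-FAM118B and YAP1-TFE3. JUN genes made up 71.3 ± 1.69% of that sum in naive and 67.3 ± 1.87%, 67.3 ± 3.14% and 63.3 ± 8.65% in the tumours. FOS genes made up 28.1 ± 1.72%, 17.3 ± 1.95%, 28.1 ± 4.74% and 22.0 ± 4.53%. Atf3 went from 0.473 ± 0.218% in naive to 7.70 ± 0.745%, 3.22 ± 1.91% and 10.8 ± 6.996%, and both BATF genes together from 0.135 ± 0.0883% to 7.75 ± 3.04%, 1.42 ± 0.725% and 3.91 ± 4.98%. These shares were described and not tested. They show JUN genes as the larger part of the pool in all 4 groups, and Atf3 with the BATF genes at under 1% of it in naive.

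**Figure D4:**
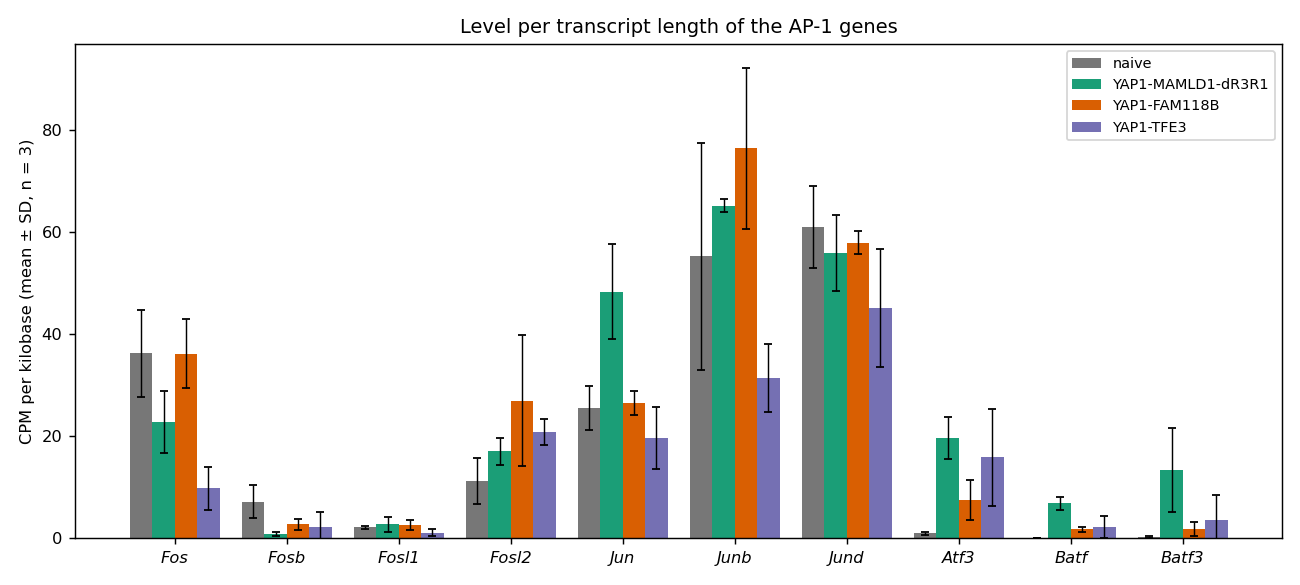
Mean CPM per kilobase of the longest coding transcript (vertical axis, linear from 0; bars) with SD (whiskers, n = 3) for the 10 AP-1 genes (horizontal axis) in the 4 groups. Jund and Junb are the 2 tallest bars in each group, and the Atf3 bars stand at 0.900 in naive and between 7.42 and 19.6 in the tumours.

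Other bZIP genes include partners and repressors of AP-1. In the order of the tumours, 34.4%, 21.3% and 40.6% of all genes were called higher and 28.8%, 8.45% and 30.0% lower, and the counts of each list below stand beside these shares. Of 23 listed genes 15 were higher and 1 lower in YAP1-MAMLD1-dR3R1. The numbers were 16 and 1 for YAP1-FAM118B and 15 and 3 in YAP1-TFE3, with medians of 1.49, 1.42 and 1.56 on the log2 scale beside 0.06, -0.05 and 0.23 over all genes. Maff, a small MAF protein without an activation domain, was at 2.05 ± 0.393 CPM (SD, n = 3) in naive and 31.0 ± 10.0, 21.6 ± 6.65 and 219 ± 64.6 in the tumours. Its log2 fold changes of 3.92 ± 0.36 (SE), 3.39 ± 0.35 and 6.73 ± 0.405 had edgeR adjusted p no higher than 1.07e-04. Mafk, its relative, rose by 1.90, 1.40 and 4.37. YAP1-TFE3 stood above both other fusions for Maff (edgeR adjusted p of 1.79e-04 and 6.27e-05) and for Mafk (7.25e-05 and 2.45e-05).

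Nfe2l2, the activator of antioxidant genes that pairs with small MAF proteins, rose by 2.94, 1.985 and 3.73 on the log2 scale, and Atf5, a stress-response factor, by 2.465, 2.23 and 3.91. Atf2, a partner of JUN, fell in each tumour (-1.27 ± 0.14 (SE), -0.69 ± 0.14 and -1.54 ± 0.14, edgeR adjusted p no higher than 0.00494). Bach2, a repressor at AP-1-like sites known from lymphocytes, rose in YAP1-MAMLD1-dR3R1 (1.17 ± 0.20) and YAP1-FAM118B (0.61 ± 0.20, edgeR adjusted p = 0.0412) and fell in YAP1-TFE3 (-0.86 ± 0.20, edgeR adjusted p = 0.00328). The YAP1-FAM118B call of Bach2 was lost in 8 of 20 alternatives.

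The kinases that act upstream of AP-1 held calls in both directions, as did all genes. Of 23 genes 9 were higher and 13 lower in YAP1-MAMLD1-dR3R1. The numbers were 4 and 5 for YAP1-FAM118B and 7 and 12 in YAP1-TFE3, with medians of -0.56, -0.29 and -0.31. DESeq2 called 14 in YAP1-FAM118B in place of 9. Mapk9, which encodes the kinase JNK2 that phosphorylates JUN, fell from 278 ± 38.9 CPM in naive to 94.4 ± 6.48, 163 ± 18.9 and 68.4 ± 7.01. Map2k4, a kinase that activates JNK, fell from 268 ± 11.5 CPM to 76.8 ± 14.4, 149.7 ± 14.6 and 86.7 ± 7.07. Map3k1, which acts above it, rose from 9.72 ± 3.62 CPM to 58.3 ± 13.8, 27.5 ± 0.720 and 72.05 ± 7.34. Nras rose in every fusion (log2 fold changes of 1.20, 0.85 and 1.29), whereas Hras, another RAS gene, fell in YAP1-MAMLD1-dR3R1 (-1.28 ± 0.155) and rose in YAP1-TFE3 (0.70 ± 0.15). The highest edgeR adjusted p among the calls of these 5 genes was 0.0026. Map2k2, a kinase that activates ERK, rose in YAP1-TFE3 (1.00 ± 0.16, edgeR adjusted p = 3.02e-04), while its calls of 0.43 and 0.48 in YAP1-MAMLD1-dR3R1 and YAP1-FAM118B were lost in 4 and 7 of 20 alternatives.

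Feedback inhibitors of the ERK kinases include phosphatases and the Sprouty proteins. Of 16 genes 4 were higher and 4 lower in YAP1-MAMLD1-dR3R1, 4 were higher in YAP1-FAM118B with the remaining 12 not called, and 5 were higher and 7 lower in YAP1-TFE3. Dusp4, a nuclear MAPK phosphatase, was at 13.45 ± 2.69 CPM in naive and 106 ± 36.8 in YAP1-TFE3 (log2 fold change 2.975 ± 0.40 (SE), edgeR adjusted p = 1.12e-04). Spry1, an inhibitor of receptor signals to ERK, rose in every fusion (2.62, 1.56 and 1.26 on the log2 scale). Errfi1, which inhibits the EGF receptor, fell in YAP1-TFE3 from 48.5 ± 5.77 to 13.8 ± 3.35 CPM (-1.81 ± 0.33, edgeR adjusted p = 7.39e-04). Dusp8, a phosphatase of JNK, fell from 177.5 ± 26.3 CPM to 28.7 ± 14.3 in YAP1-MAMLD1-dR3R1 and a mean of 10.3 in YAP1-TFE3. Spred2 fell in the same fusions (-0.96 and -1.07 on the log2 scale), and Dusp7 in YAP1-TFE3 (-1.28). Errfi1 was also below both other fusions in YAP1-TFE3 (-2.15 and -2.05, edgeR adjusted p of 8.35e-04 and 8.03e-04).

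Serum response factor and its partners switch on Fos and Egr1. Of 7 genes 3, 2 and 4 were called in the 3 fusions, beside 63.2%, 29.7% and 70.6% of all genes in either direction. Elk3, a ternary complex factor, rose in each (3.885, 3.03 and 2.70), and Elk1 fell in YAP1-MAMLD1-dR3R1 and YAP1-TFE3 (-1.10 and -0.91). Mkl2, a co-activator of serum response factor, fell in the same fusions (-2.355 and -2.47), and Mkl1, its relative, in YAP1-TFE3, from 59.7 ± 13.1 to 29.8 ± 1.54 CPM (edgeR adjusted p = 0.005). Myocd, the muscle member of that family, was at 0.243 ± 0.199 CPM in naive and 1.70 ± 0.36 in YAP1-FAM118B, a call lost in 5 of 20 alternatives. Myocd needed its YAP1-FAM118B libraries to pass the filter on low counts, so this call is given as a description.

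Other immediate early genes respond to the same stimuli as Fos. Of 24 genes 10 were higher and 9 lower in YAP1-MAMLD1-dR3R1. The numbers were 8 and 1 for YAP1-FAM118B and 8 and 11 in YAP1-TFE3. Egr1, a zinc finger factor induced by neuronal activity and growth factors, was at 419, 466 and 173.5 CPM in naive and 30.5, 61.6 and 34.9 in YAP1-TFE3. It was at 35.7, 59.4 and 59.25 CPM in YAP1-MAMLD1-dR3R1 and 202, 156 and 153.5 in YAP1-FAM118B. The log2 fold changes were -2.78 ± 0.41 (SE), -1.05 ± 0.39 and -3.06 ± 0.41, and the second did not pass (edgeR adjusted p = 0.065). Nr4a3, a nuclear receptor of the same response, fell in every fusion (-3.11, -2.41 and -2.64).

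Other members of the list were higher in tumours. Myc, a growth regulator, rose from 3.53 ± 0.458 CPM in naive to 50.2 ± 5.28, 46.4 ± 12.5 and 30.4 ± 7.40, with edgeR adjusted p no higher than 1.61e-05. Zfp36, an RNA-decay factor, rose by 4.265, 3.60 and 3.23 on the log2 scale, and Klf6 by 1.85, 1.60 and 1.56. Gadd45b, a stress gene, reached 157 ± 43.5 CPM in YAP1-TFE3 from 16.3 ± 5.01 in naive (3.26 ± 0.32, edgeR adjusted p = 1.57e-05). Arc and Npas4, known as activity-linked genes of neurons and named here after their values were seen, were at 381 ± 187 and 28.65 ± 11.35 CPM in naive. They were at 9.52 ± 6.78 and 0.334 ± 0.0618 CPM in YAP1-MAMLD1-dR3R1 and at 5.79 ± 7.665 and 0.922 ± 1.29 in YAP1-TFE3. In YAP1-FAM118B they were at 113 ± 9.38 and 14.35 ± 4.76 CPM and were not called against naive. The sum of neuron markers was lower in the same tumours, and its part in the levels of these genes was not tested.

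**Figure D5:**
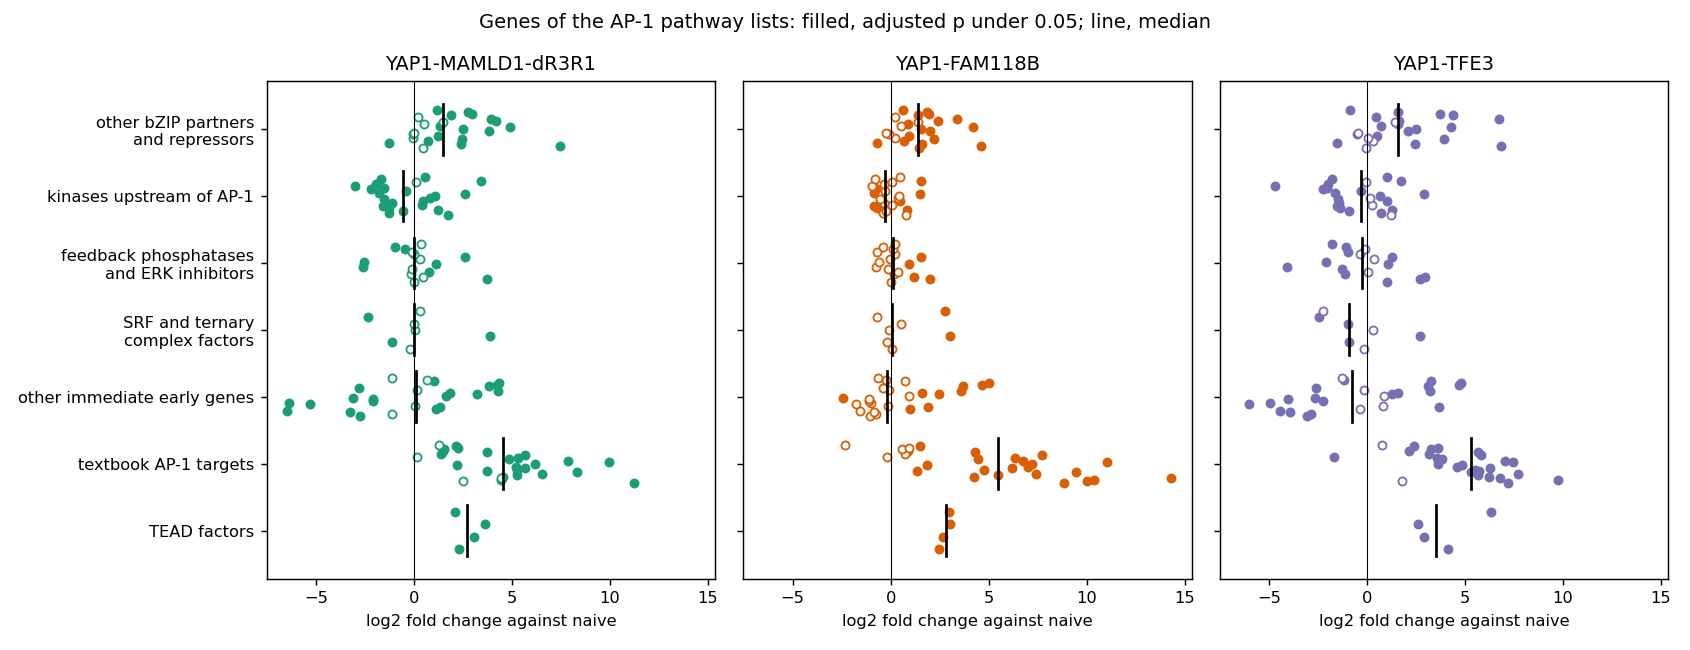
Log2 fold change against naive (horizontal axis, the same range in each panel) of the genes of 7 lists around AP-1 (vertical axis) in the 3 fusions; points are genes, filled where the edgeR adjusted p is under 0.05, and lines are list medians. The AP-1 target list has its median between 4.52 and 5.50, and the kinases have theirs between -0.56 and -0.29. Some of the AP-1 targets passed the filter on low counts through tumour libraries alone.

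Genes known as AP-1 targets were mostly higher in tumours. Of 29 listed genes 27 were tested, of which 23 were higher in YAP1-MAMLD1-dR3R1 and 22 in YAP1-FAM118B with the rest not called, while 24 were higher and 1 was lower in YAP1-TFE3. The medians were 4.52, 5.50 and 5.32 on the log2 scale. Several of these genes, such as Vim and Cd44, are also known in macrophages and fibroblasts, whose summed markers were higher in the same tumours, and the part of those cells in the list was not tested. Other listed targets, among them Mmp3, Mmp10, Mmp13, Il6 and Il1b, passed the filter on low counts through tumour libraries alone. Mmp10 and Il6 had 0 counts in every naive library. Such genes could only be called higher, so their calls and their part in the medians are given as a description. Vim, a mesenchymal intermediate filament, rose from 36.45 ± 4.95 CPM to 1869 ± 456, 2670.0 ± 651 and 2821 ± 397. Cd44, an adhesion receptor, rose from 6.61 ± 0.463 CPM to 253 ± 54.1, 183 ± 54.7 and 297 ± 86.3.

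Ccnd1, which encodes cyclin D1, was called in all 3 comparisons between fusions. Some other listed targets differed by more, such as Mmp13 in YAP1-FAM118B against YAP1-MAMLD1-dR3R1 (log2 difference of 9.91, edgeR adjusted p = 0.00799). Ccnd1 was at 67.5 ± 2.17 CPM in naive cortex. The tumours had 889 ± 281 (YAP1-MAMLD1-dR3R1), 171 ± 24.8 (YAP1-FAM118B) and 3479 ± 342 CPM (YAP1-TFE3). YAP1-TFE3 exceeded YAP1-FAM118B by 4.34 on the log2 scale and YAP1-MAMLD1-dR3R1 by 1.97 (edgeR adjusted p of 5.4e-06 and 2.2e-04). Jun, Junb and Fos were lower in the same YAP1-TFE3 tumours than in YAP1-MAMLD1-dR3R1, as given above. Odc1, the first enzyme of polyamine synthesis, rose by 1.48, 0.89 and 2.13. Hmga1, a chromatin protein, was the gene called lower in YAP1-TFE3 (-1.69 ± 0.63, edgeR adjusted p = 0.0335), a call lost in 5 of 19 alternatives. It had only 17, 10 and 26 counts in naive and 4, 9 and 2 in YAP1-TFE3. Hmga1 passed the filter on low counts without its YAP1-TFE3 libraries, so this call is given as a description.

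The TEAD genes, which encode the DNA-binding partners of YAP1, were all 4 higher in every fusion. Tead1 was at 23.6 ± 3.92 CPM in naive and 117 ± 46.85, 128 ± 34.7 and 408 ± 18.85 in the tumours. Tead4 rose from 0.595 ± 0.421 CPM to 47.5 ± 11.5 in YAP1-TFE3, above both other fusions (edgeR adjusted p of 0.00173 and 0.00355). Its calls in YAP1-MAMLD1-dR3R1 and YAP1-FAM118B were lost in 5 and 3 of 20 alternatives. Tead4 needed tumour libraries to pass the filter on low counts, so its calls against naive are given as a description. Tead2 and Tead3 rose by between 2.58 and 3.62 on the log2 scale.

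The genes whose profiles over the 12 libraries were nearest to a member were sought by the root mean square difference of centred log2 CPM, among 12964 or 12965 genes with a mean of at least 5 CPM. Nearest to Fos were Prkab2 (0.276) and Ccdc85b (0.288), and nearest to Fosl2 were Ppapdc1b (0.219) and Snhg6 (0.291). For Batf they were Pik3ap1 (0.242) and Vav1 (0.252), both known in leukocytes, and for Atf3 Hk3 (0.383) and Ifi35 (0.455). For Fosl1 they were Fat4 (0.420) and Errfi1 (0.457). These distances describe the 12 libraries, which share their groups, and carry no test.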

How the data were processed

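Bulk RNA was sequenced in 12 libraries. Raw read counts per gene symbol were deposited by the authors, with HTSeq and build mm10 named in the submitters' processing notes. For the aligner, annotation, strand setting and versions the entry is: not given in the sources used here. The extraction protocol speaks of cell cultures, whereas the design text speaks of frozen tumours. Of 24421 genes, 16364 passed filterByExpr (minimum count 10). CPM was computed here from the deposited counts with TMM factors. A quasi-likelihood model of edgeR 4.0.16 (limma 3.58.1, R 4.3.3) was fitted to all 12 libraries, so the groups share 1 estimate of the spread, and gave 6 contrasts with Benjamini-Hochberg adjustment over all genes. SE is the size of the log2 fold change over the square root of F. Counting intervals cover counting error only. The script was tested on simulated data. As alternatives the tests were repeated with DESeq2 1.42.0, with RLE factors or plain library sizes, with no filter or 1 CPM in 3 libraries, on the compared groups alone, with a block for replicate number, leaving out single libraries, and leaving out both libraries that held Xist and Ddx3y.

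Members, gene lists, markers and motifs were chosen with earlier results of these data known. All members are named. From a pathway list, up to 4 genes with the smallest adjusted p against naive and up to 2 called against the list's majority are named, and for 5 members the nearest 2 profiles. Coordinates come from RefSeq (GRCm38.p6), and lengths and overlaps from GENCODE M21 (GRCm38). Marker sums not given above were, in naive, 4414 to 5465 CPM for astrocytes, 5712 to 11460 for oligodendrocytes, 3.65 to 5.07 for neutrophils, 147 to 159 for endothelium and pericytes and 154.5 to 246 for fibroblasts. In tumours they ran from 1413 to 7039, 581 to 4752, 8.30 to 167, 349 to 785 and 1338 to 24140 CPM.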

Additional observations from a re-analysis of the deposited data

Results flagged for a closer look

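The effects of the fusions on 3 members differed between fusions, by edgeR tests of the difference itself. For Jun the log2 difference was -0.87 in YAP1-FAM118B against YAP1-MAMLD1-dR3R1 (edgeR adjusted p = 0.0244) and -1.30 in YAP1-TFE3 against YAP1-MAMLD1-dR3R1 (edgeR adjusted p = 0.00183), with the 3 libraries of each fusion below all 3 of YAP1-MAMLD1-dR3R1. For Fos it was -1.23 in YAP1-TFE3 against YAP1-MAMLD1-dR3R1 (edgeR adjusted p = 0.0128) and -1.90 against YAP1-FAM118B (edgeR adjusted p = 0.00112). For Junb it was -1.06 and -1.29 in the same comparisons (edgeR adjusted p of 0.0167 and 0.00493). The YAP1-TFE3 libraries of Fos and Junb were all below those of both other fusions.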

How the results depend on the processing

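Of 1200 alternative log2 fold changes of members, 1057 kept direction and side of the threshold, 57 gained a call, 44 lost one and 42 changed sign, and those that changed sign had no call in the fit reported. Against naive, 5, 3 and 6 members were called, and 4 to 6, 2 to 4 and 4 to 9 with a library left out. The 1 call in YAP1-FAM118B against YAP1-MAMLD1-dR3R1 became 4 with DESeq2 and with only the groups compared, 0 without both libraries that held Xist and Ddx3y, and 0 to 3 with a library left out. Over all genes that comparison gave 4293 calls, 1010 without both libraries and 1666 to 5069 with 1 left out, and YAP1-FAM118B against naive gave 4861 and 2979 to 5475. The 3 calls in YAP1-TFE3 against YAP1-MAMLD1-dR3R1 became 5 with DESeq2 and 3 to 5 with a library left out. The 2 against YAP1-FAM118B became 4 with the filter of 1 CPM and 2 to 6 with a library left out. With the replicate number as a block the counts of members were 5, 2, 5, 1, 4 and 3 in the 6 comparisons. Same-numbered libraries had correlations of their deviations between -0.111 and 0.324. Differently numbered libraries were not compared, so whether the numbers pair the samples cannot be told.

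Values that changed sign were close to 0 in most cases. For Jun in YAP1-FAM118B against naive (0.052) they were -0.018 with DESeq2, -0.019 with RLE factors and -0.031 to 0.13 with a library left out. For Fos in the same comparison (-0.003) they were 0.021 with library size, 0.034 with no filter, 0.061 with 1 CPM, 0.033 with only the groups compared, 0.033 with the replicate block, 0.329 without both libraries and -0.157 to 0.185 with 1 left out. For Fosl1 between YAP1-FAM118B and YAP1-MAMLD1-dR3R1 (-0.079) they were 0.008 with 1 CPM, 0.016 with the replicate block, 0.065 without both libraries and -0.45 to 0.404 with 1 left out. For Fosb between YAP1-TFE3 and YAP1-FAM118B (-0.266) they were 0.044 without both libraries and -2.695 to 0.086 with 1 left out. With a library left out, the ranges against naive were -0.107 to 0.706 (Fosl1) and -0.049 to 0.512 (Junb) in YAP1-MAMLD1-dR3R1, and -0.074 to 0.465 (Fosl1) and -0.176 to 0.011 (Jund) in YAP1-FAM118B. Between fusions they were -0.048 to 0.207 for Jund in YAP1-FAM118B against YAP1-MAMLD1-dR3R1, and -0.899 to 1.9 (Fosb) and -0.025 to 0.407 (Fosl2) in YAP1-TFE3 against YAP1-MAMLD1-dR3R1. In YAP1-TFE3 against YAP1-FAM118B they were -0.791 to 0.045 (Fosl2), -1.072 to 0.618 (Batf) and -1.583 to 1.863 (Batf3). The cause was not tested.

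RLE factors, DESeq2 and library size moved the median of all genes in YAP1-TFE3 against naive by -0.152, -0.153 and -0.192. Higher genes made up 71.6% of calls in YAP1-FAM118B against naive and 57.3% with DESeq2. In that comparison the count of phosphatases and ERK inhibitors called went from 4 to 2 without naive replicate 1, naive replicate 2 or YAP1-FAM118B replicate 1. The count of serum response factors went from 2 to 1 without naive replicate 1 or 2, YAP1-FAM118B replicate 1 or 3, or both libraries that held Xist and Ddx3y. The 3 libraries of a group and the few counts of Batf and Batf3 in naive limit the precision.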
